A study of Mus musculus with 8 samples.

Results

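Cholesterol synthesis in cultured mouse peritoneal mast cells (PMCs) was followed through 7 genes, Hmgcs1, Idi1, Fdps, Fdft1, Sqle, Lss and Insig1. They were chosen by name, with earlier results of these data known, out of 55359 genes in the deposited count table. The shares of all genes set beside them below are therefore a description and not a test. All 7 passed the filter on low counts, as did 14529 genes in all. RNA was sequenced from 8 untreated cultures of PMCs from C57BL/6x129/Sv mice. Of these, 6 were primary wild-type (WT) PMCs (3 from female and 3 from male animals) and 2 were the lines PMC-303 and PMC-306. Both lines arose without any directed manipulation from primary WT PMCs kept in culture for long, and each line gave 1 library. The paper reports chromosomal changes in both, a heterozygous deletion in all PMC-306 cells analyzed and a trisomy in part of the PMC-303 cells. It describes the chromosome set of PMC-306 as male. Primary cultures received 15% FCS, 20 ng/ml SCF and 30 ng/ml IL-3, whereas both lines received 10% FCS, 5 ng/ml SCF and 30 ng/ml IL-3. Serum, SCF, time in culture, chromosomal changes and transformation therefore change together between lines and primary cultures. Their parts in any difference cannot be told apart.

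Cholesterol is built from acetyl-CoA in a long chain of reactions that passes through mevalonate, the isoprenoids and squalene. Cells also take up cholesterol from the lipoproteins of serum. When sterols in the membrane of the endoplasmic reticulum are low, the escort protein SCAP carries SREBP transcription factors to the Golgi, where proteases release a fragment that enters the nucleus and activates the genes of synthesis and uptake. When sterols are plentiful, INSIG proteins hold SCAP and SREBP back. Mast cells need cholesterol for the membrane regions in which the high affinity IgE receptor signals, and dividing cells need it for new membranes.

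The stretch before the start site of these genes is where SREBP and its partner factors are known to act, so it is shown for the members with an entry in the RefSeq promoter table (build GRCm38.p6), which were 4 of 7. Each sequence holds the 250 bases before the start on the strand of the gene, 5′ to 3′. Capitals mark a sterol element (TCACNCCAC) or a CCAAT box, which reads ATTGG where it lies on the other strand.
Hmgcs1, chr13:119690101-119690350, plus strand: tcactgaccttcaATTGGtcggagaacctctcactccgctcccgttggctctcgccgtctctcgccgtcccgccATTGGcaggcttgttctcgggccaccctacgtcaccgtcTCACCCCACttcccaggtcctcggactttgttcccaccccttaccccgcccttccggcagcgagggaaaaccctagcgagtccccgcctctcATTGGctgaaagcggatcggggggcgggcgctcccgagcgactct
Idi1, chr13:8885356-8885605, plus strand: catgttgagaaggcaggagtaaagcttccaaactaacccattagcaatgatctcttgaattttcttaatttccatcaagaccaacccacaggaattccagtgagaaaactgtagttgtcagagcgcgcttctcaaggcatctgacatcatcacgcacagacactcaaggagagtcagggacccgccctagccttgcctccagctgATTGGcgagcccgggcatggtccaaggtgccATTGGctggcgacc
Lss, chr10:76531355-76531604, plus strand: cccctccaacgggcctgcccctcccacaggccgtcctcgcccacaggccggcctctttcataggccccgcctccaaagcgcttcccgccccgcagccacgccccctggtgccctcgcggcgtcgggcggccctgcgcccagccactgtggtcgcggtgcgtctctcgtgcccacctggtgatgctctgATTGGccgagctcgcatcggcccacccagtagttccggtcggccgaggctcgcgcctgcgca
Insig1, chr5:28071162-28071411, plus strand: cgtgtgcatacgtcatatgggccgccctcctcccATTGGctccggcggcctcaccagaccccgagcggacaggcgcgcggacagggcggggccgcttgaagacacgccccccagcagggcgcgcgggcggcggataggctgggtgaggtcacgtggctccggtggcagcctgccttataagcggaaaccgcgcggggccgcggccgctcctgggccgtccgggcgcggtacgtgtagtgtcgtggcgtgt
Both strands were searched. The sterol element was found in the window of Hmgcs1, where it begins 137 bases before the start, and in 1.05% of 32851 windows of all genes. All 4 windows held a CCAAT box, as did 33.8% of all windows, with 3 boxes in Hmgcs1, 2 in Idi1, 1 in Lss and 1 in Insig1. A GC box (GGGCGG) was also in each of the 4 windows and in 32.7% of all windows. These are matches of letters and not measured binding sites. Sqle, Fdft1 and Fdps had no entry.

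Levels are given as CPM, the estimated count of a gene per 1000000 counts of its library after TMM scaling, which sets the bulk of genes equal between libraries. PMC-306 cells had the highest level of all 8 cultures for 7 of 7 genes, between 1.24 times (Sqle) and 2.80 times (Hmgcs1) the level of PMC-303. Relative to the mean of the 6 primary cultures the genes were 1.39-fold (Sqle) to 4.67-fold (Hmgcs1) higher in PMC-306 and 1.12-fold (Sqle) to 2.51-fold (Fdps) higher in PMC-303. Of the primary cultures, female 1 was the highest and female 3 the second for 7 of 7 genes. In bulk RNA, more cells with a transcript and more transcript per cell cannot be told apart.

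**Figure D1:**
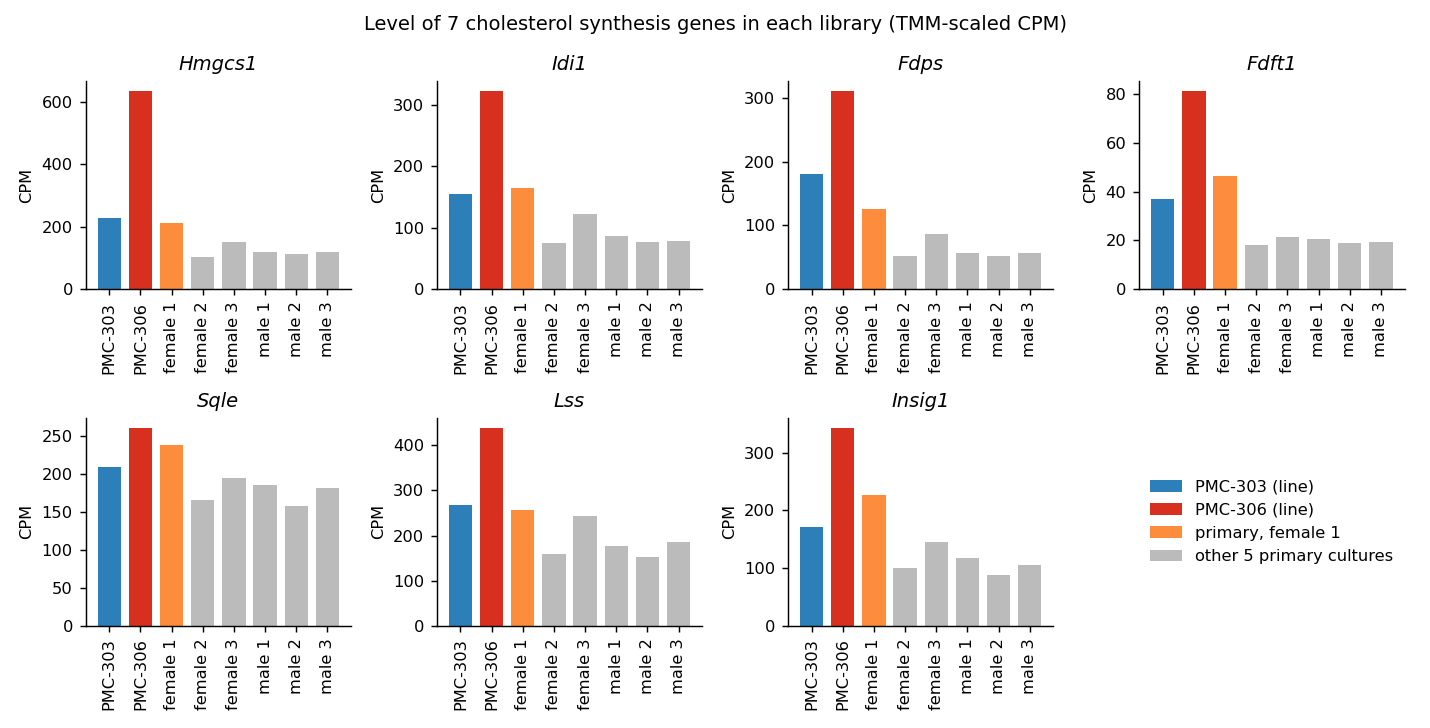
Level of each of the 7 genes (CPM, linear axis from 0) in the 8 cultures, with 1 bar per library and no error bar. PMC-306 has the tallest bar in every panel, and female 1 stands above the other 5 primary cultures.

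Hmgcs1 (ENSMUSG00000093930.3, GRCm39 chr13:120151915-120170470, plus strand) encodes the cytosolic HMG-CoA synthase, which joins acetoacetyl-CoA and acetyl-CoA at the entry of the mevalonate pathway. PMC-306 and PMC-303 had 636 and 227 CPM, against 212, 104 and 151 CPM in female cultures 1 to 3 and 120, 113 and 118 CPM in male cultures 1 to 3. Both lines lay above every primary culture, PMC-306 by 3.00-fold over female 1 and PMC-303 by 1.07-fold. In the comparison of both lines with the 6 primary cultures (136 ± 40.4 CPM, SD, n = 6), the log2 difference was 1.52 (SE 0.38, 95% confidence interval 0.65 to 2.40, adjusted p = 0.0156, limma). Here and below, p-values of this comparison are adjusted over the 14529 genes tested. In other fits they are adjusted over the genes tested in that fit.

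Idi1 (ENSMUSG00000058258.15, GRCm39 chr13:8935537-8942487, plus strand) encodes isopentenyl diphosphate isomerase, which interconverts the pair of 5-carbon building blocks of all isoprenoids. PMC-306 reached 323 CPM and PMC-303 155 CPM, while the female cultures had 165, 75.6 and 123 CPM and the male cultures 86.4, 76.8 and 77.9 CPM. Thus PMC-306 was 1.95 times the highest primary culture, and by CPM PMC-303 fell between female 1 and female 3. The lines exceeded the primary mean of 101 ± 36.2 CPM by 1.22 on the log2 scale (SE 0.36, interval 0.39 to 2.04, adjusted p = 0.0314, limma). Counts could be shared with processed copies of the gene, but the most abundant copy listed, Idi1-ps1, had no more than 4.38 CPM in any library.

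Fdps (ENSMUSG00000059743.13, GRCm39 chr3:89000888-89019213, minus strand) encodes farnesyl diphosphate synthase, which makes the 15-carbon unit from which sterols, dolichol, ubiquinone and protein prenyl groups branch. PMC-303 stood further above the primary cultures here than for the other 6 genes, with 311 CPM for PMC-306, 180 CPM for PMC-303, 125, 52.2 and 87.0 CPM in female cultures and 56.8, 52.0 and 56.9 CPM in male cultures. Both lines were above the primary range, at 2.48 and 1.43 times female 1. It had the highest log2 difference among the 7 genes, 1.81 over a primary mean of 71.7 ± 29.4 CPM (SE 0.36, interval 0.98 to 2.63, adjusted p = 0.00600, limma).

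Fdft1 (ENSMUSG00000021273.12, GRCm39 chr14:63382189-63417027, minus strand) encodes squalene synthase, which commits farnesyl diphosphate to sterols. It was the lowest of the 7 also per length, at 9.002 ± 4.04 TPM (a count corrected for transcript length, SD, n = 6) in primary cultures, where the others had means between 38.4 (Idi1) and 71.1 TPM (Sqle). In CPM, PMC-306 had 81.5, PMC-303 37.1, the female cultures 46.7, 18.0 and 21.2 and the male cultures 20.5, 19.1 and 19.3. The other 5 primary cultures lay close together, female 1 stood apart at 2.38 times their mean, and PMC-303 was below female 1. The log2 difference of lines and primary cultures was 1.28 (SE 0.40, interval 0.37 to 2.18, adjusted p = 0.0376, limma).

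Sqle (ENSMUSG00000022351.15, GRCm39 chr15:59186869-59203043, plus strand) encodes squalene epoxidase, the first enzyme of the pathway that uses molecular oxygen. Its level varied least among the 7, and PMC-306 and PMC-303 had 261 and 210 CPM, beside 239, 166 and 195 CPM in female cultures and 185, 157 and 182 CPM in male cultures. PMC-306 was 1.09 times the highest primary culture and PMC-303 was within the primary range. The log2 difference of 0.34 did not pass the test (SE 0.15, interval -0.02 to 0.69, adjusted p = 0.129, limma), so that for Sqle a rise by more than 0.69 lies outside the interval.

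Lss (ENSMUSG00000033105.13, GRCm39 chr10:76367298-76392976, plus strand) encodes lanosterol synthase, which closes oxidosqualene to the first sterol. Levels of 439 and 269 CPM in PMC-306 and PMC-303 stood beside 258, 159 and 244 CPM in female cultures and 177, 152 and 187 CPM in male cultures. By CPM both lines were above all primary cultures, but PMC-303 exceeded female 1 by only 1.04-fold. In TPM it was below female 1 (86.4 and 87.1). The lines were higher by 0.84 on the log2 scale (SE 0.25, interval 0.27 to 1.41, adjusted p = 0.0309, limma).

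Insig1 (ENSMUSG00000045294.12, GRCm39 chr5:28276315-28283668, plus strand) is no enzyme but encodes the brake that retains SCAP and SREBP in the endoplasmic reticulum, and its own transcription is known to follow SREBP. In PMC-306 it was at 344 CPM and in PMC-303 at 171 CPM, with 227, 99.9 and 145 CPM in female cultures and 118, 87.1 and 105 CPM in male cultures. PMC-306 was 1.52 times female 1, whereas PMC-303 was at 0.755 times female 1 and above the other 5 primary cultures. The log2 difference of 0.97 did not pass the test (SE 0.37, interval 0.12 to 1.82, adjusted p = 0.0760, limma).

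Together, 5 of the 7 genes were called higher in the lines and 0 lower, where 18.3% of all genes tested were called higher, 15.5% lower and 33.9% in either direction. The median log2 difference was 1.22 over the 7 genes and -0.01 over all genes tested. The count depended on PMC-306 and moved with single primary cultures. Without PMC-306, 0 of 7 were called, against 15% of all genes called higher in that fit, and their log2 differences lay between 0.18 (Sqle) and 1.41 (Fdps, adjusted p = 0.0578, limma). Without PMC-303, 6 were called, against 14% of all genes, with differences from 0.49 (Sqle, not called) to 2.27 (Hmgcs1). In these fits the lone line is assumed to vary as the primary cultures do. Without female 1 all 7 were called (16.5% of all genes), without female 3 it was 4 (17.8%), and without female 2, male 1, male 2 or male 3 it was 2 each (17.6%, 16.6%, 16.2% and 17.2%). In the latter 4 fits the calls of Idi1, Fdft1 and Lss were the ones lost, at adjusted p between 0.0517 and 0.0678 (limma). Against the 3 female cultures alone 0 of 7 were called (9.27% of all genes) and against the 3 male cultures 6 (12.6%). Since PMC-306 is male by its chromosomes, the fit against female cultures also sets a male line against female cells. Without both female 1 and PMC-306, a choice made after seeing the data, it was 3 (13%). The difference remained positive for 7 of 7 genes in 19 of 19 alternatives. These fits share most of their libraries, and the share of all genes with a constant sign was not counted.

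**Figure D2:**
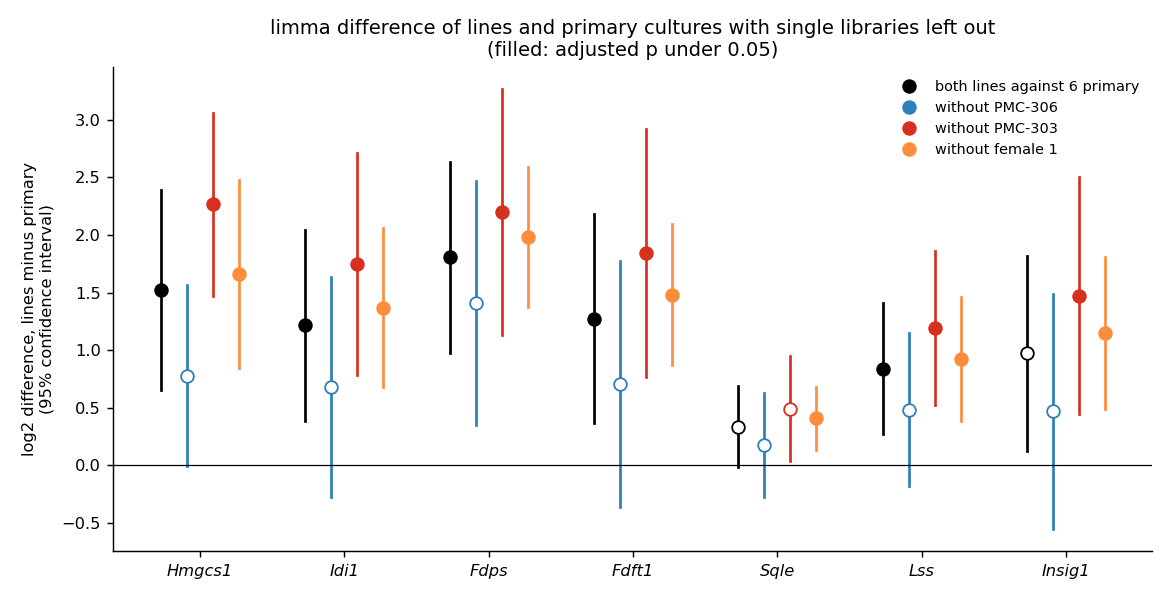
Log2 difference of lines minus primary cultures (points, limma on log2(CPM + 0.1)) with its 95% confidence interval (lines) for each gene, with both lines and 6 primary cultures or with 1 library left out. Filled points had an adjusted p under 0.05, so that 5 of 7 are filled with all libraries, 0 without PMC-306, 6 without PMC-303 and 7 without female 1.

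Counting cultures gave the same picture of unequal lines. PMC-306 was above all 6 primary cultures for 7 of 7 genes, against 32% of all genes tested, and at least 1.5-fold above the highest primary culture for 6 of 7 genes, against 10.2%. PMC-303 was above all primary cultures for Hmgcs1, Fdps and Lss, 3 of 7 genes, against 33.4% of all genes, so that its share was close to that background. The same 3 genes were above all primary cultures in both lines, against 23% of all genes. PMC-306 exceeded PMC-303 for 7 of 7 genes, against 44.2%. PMC-303 was below female 1 for the other 4 of 7 genes, and the share of all genes with that order was not counted. These orders are by CPM. In TPM, PMC-303 was below female 1 for Lss (86.4 and 87.1) and above it for Idi1 (66.6 and 63.1).

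The primary cultures also differed among themselves. Summed over the 7 genes, PMC-306 and PMC-303 reached 2396 and 1248 CPM, beside 1272, 675 and 965 CPM in the female cultures and 764, 656 and 745 CPM in the male cultures. In TPM the order of PMC-303 and female 1 was reversed, with sums of 596 and 541. Female 1, for which the paper's methods give the same medium as for the other 5 primary cultures, was thus close to PMC-303. It was 1.35 times (Sqle) to 2.38 times (Fdft1) the mean of the other 5, and it was the highest primary culture for 7 of 7 genes, against 15.7% of all genes tested. The order female 1 first and female 3 second held for 7 of 7 genes, against 3.98%. The 7 genes followed nearly one profile over the 6 primary cultures (Pearson r between 0.742 and 0.994 in 21 pairs, median 0.936, as a description), so that these are not 7 separate observations. Female 2 was the lowest or the second lowest primary culture for 7 of 7 genes, against 36% of all genes tested, so that the female cultures held both ends of the primary range for several of them.

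The comparison of female with male primary cultures called 0 of 7 genes. It called 6 of 13710 genes (0.0438%) in all with limma, and 457 genes had an unadjusted p under 0.05. Log2 differences of female minus male cultures were positive for all 7, from 0.18 for Sqle (interval -0.16 to 0.52) to 0.59 for Fdps (interval -0.11 to 1.28). The size of these differences moved with single cultures. Without female 1 they lay between -0.01 (Fdft1) and 0.29 (Fdps), and every interval included 0. Without female 2 they lay between 0.31 (Sqle) and 0.92 (Fdps), and every interval except that of Fdft1 (-0.12 to 1.47) lay above 0. In either fit 0 of 7 were called.

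One transcript gave at least 70.8% of the counts of 6 genes in every culture, and at least 96.3% for Idi1. Lss was the exception, since its main transcript (ENSMUST00000048678.7, 22 exons) held 49.9 to 61.3% in primary cultures, 59.4% in PMC-303 and 55.4% in PMC-306. The share of the main transcript was below that of every primary culture for Sqle, Fdps and Insig1 in PMC-306 and for Idi1 and Insig1 in PMC-303, by small amounts. For Insig1 it was 92.3% in PMC-306 and 94.0% in PMC-303, beside 94.8 to 96.4%.

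Further genes of the route before squalene were taken from a fixed list of 5 with enough counts, of which 2 were called higher, 0 lower and 3 not. The list had a median log2 difference of 0.77. For this list and those below, 18.3% of all genes tested were called higher and 15.5% lower. Acat2, the cytosolic thiolase that makes acetoacetyl-CoA, was at 114 CPM in PMC-306 and 59.3 in PMC-303, beside 58.3, 25.7 and 46.7 CPM in female and 28.8, 26.5 and 24.7 CPM in male cultures. This is the pattern of the 7 genes again, with female 1 near PMC-303 (log2 difference 1.31, adjusted p = 0.0287, limma). Pmvk, phosphomevalonate kinase, was higher by 1.35 (adjusted p = 0.0181, limma). Ggps1, which extends farnesyl diphosphate to the 20-carbon unit and so leads away from sterols, was at -0.03 (adjusted p = 0.83, limma), and Mvk, mevalonate kinase, at 0.30 (adjusted p = 0.206, limma).

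After lanosterol, 4 of the 10 genes reported here were called higher, 0 lower and 6 not, with a median log2 difference of 0.58. Cyp51, lanosterol demethylase, had 237 CPM in PMC-306 and 109 in PMC-303, beside 58.7 to 123 CPM in primary cultures (1.15, adjusted p = 0.0330, limma). Lbr, a sterol reductase that also anchors chromatin to the nuclear lamina, differed in pattern, with 306 and 287 CPM in the lines, far above 88.6 to 138 CPM in the primary cultures, and with female 1 in mid-range (1.43, adjusted p = 0.000240, limma). Erg28, a scaffold of sterol demethylation, was higher by 0.80 (adjusted p = 0.00509, limma). Msmo1, sterol methyl oxidase, was at 0.76 and did not pass (adjusted p = 0.0624, limma).

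**Figure D3:**
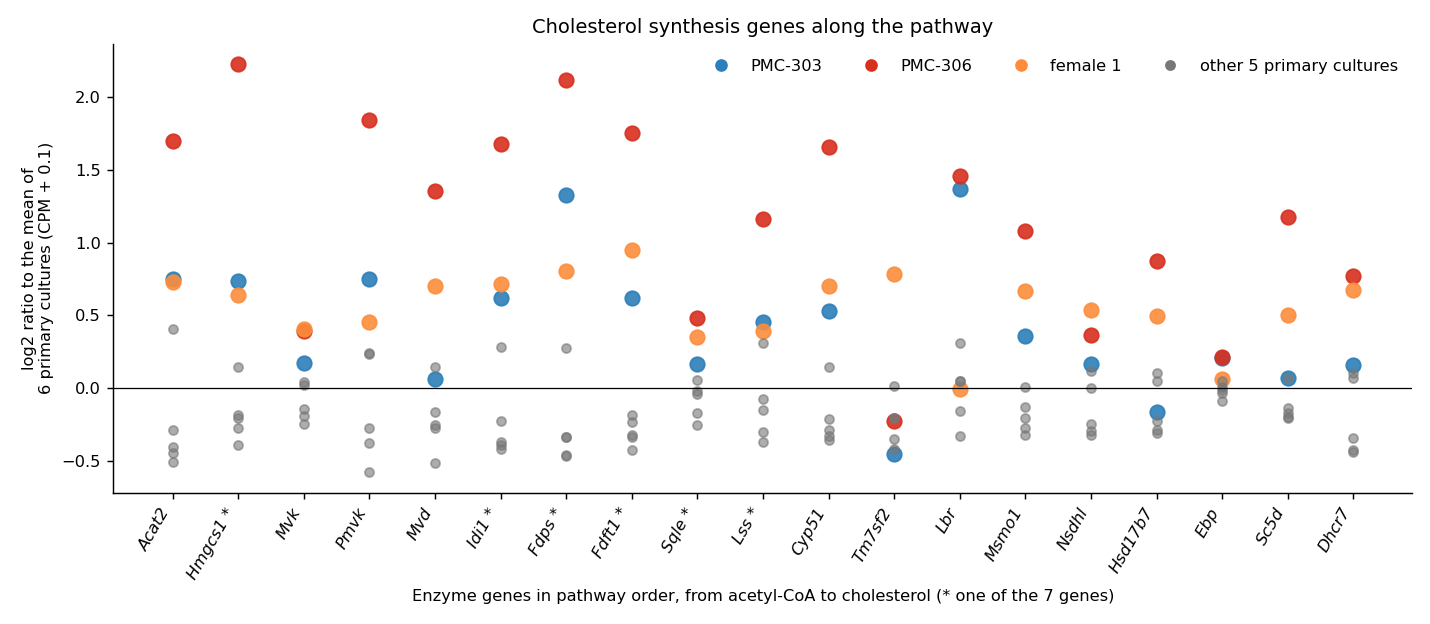
Log2 ratio of each culture to the mean of the 6 primary cultures (CPM + 0.1) for 19 enzyme genes in pathway order, where asterisks mark the 7 genes without Insig1 and each point is 1 library. PMC-306 is far above the primary cultures for most genes up to Cyp51, and female 1 is the highest primary culture for every gene shown except Lbr, by little for Ebp.

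Of the genes that control the pathway, 1 of 10 was called higher, 1 lower and 8 not, with a median log2 difference of -0.10. Srebf1, which encodes SREBP-1, was at 217 CPM in PMC-306 and 159 in PMC-303, beside 149, 109 and 141 CPM in female cultures and 104, 105 and 103 CPM in male cultures. Both lines were above the primary range (0.67, adjusted p = 0.0227, limma), and the order of the cultures was close to that of the 7 genes. Srebf2, whose product is the main SREBP for cholesterol synthesis, was at 0.30 (adjusted p = 0.329, limma) with 148 CPM in PMC-306 and 87.7 in PMC-303, beside 78.7 to 128 CPM. Scap was at -0.18 (adjusted p = 0.213, limma). Insig2, the second INSIG gene, was at -0.06 (adjusted p = 0.73, limma) and at 12.6 to 15.3 CPM in every culture. Spring1, which is needed for cleavage of SREBP, was called lower (-0.35, adjusted p = 0.0332, limma).

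Genes of cholesterol uptake and movement inside the cell gave 0 higher and 1 lower of the 12 genes reported here, with a median log2 difference of 0.04. Npc2, which hands cholesterol over in the lysosome, had 199.5 and 199.6 CPM in PMC-306 and PMC-303 and 271 to 344 CPM in primary cultures (-0.57, adjusted p = 0.00283, limma). Of efflux and storage genes, 1 of 6 was called higher and 2 lower, beside 18.3% and 15.5% of all genes tested. Abcg1, a sterol exporter, had 59.2 CPM in PMC-306 and 39.0 in PMC-303, both below the 74.5 to 175 CPM of the primary cultures (-1.07, adjusted p = 0.0253, limma). Nceh1, a cholesteryl ester hydrolase, was lower by a difference of -0.89 (adjusted p = 0.00797, limma), and Soat2, which esterifies cholesterol, was higher by 0.89 (adjusted p = 0.0344, limma).

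Fatty acid synthesis, the other SREBP branch, gave 4 of 13 genes higher and 0 lower, with a median of 0.54, and Srebf1 is in this list too. Fads1, a fatty acid desaturase, had 215 CPM in PMC-306, 94.1 in PMC-303 and 37.7 to 89.9 CPM in primary cultures (1.33, adjusted p = 0.0234, limma). Scd2, a stearoyl-CoA desaturase, was not called at 1.59 (adjusted p = 0.0794, limma). The primary cultures ranged from 214 to 1081 CPM, with 1791 CPM in PMC-306 and 932 in PMC-303. Fasn, fatty acid synthase, was at -0.10 (adjusted p = 0.811, limma). The prenylation and dolichol list, fed by Fdps, gave 2 of 10 higher and 0 lower with a median of -0.06. This share of higher calls was near the 18.3% of all genes tested. The 2 were Pdss1, for the ubiquinone tail, at 1.19 (adjusted p = 0.00195, limma) and Rabggtb, a Rab prenyltransferase subunit, at 0.35 (adjusted p = 0.0213, limma).

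The 10 genes whose levels over the 8 cultures were most like the mean profile of the 7, of 8750 genes with at least 10 CPM on average, had Pearson r between 0.965 and 0.992. They were Cyp51, Acat2, Hacl1, Supt7l, Msmo1, Srebf1, Pcyt2, Ccdc134, Rdh11 and Maml1. This r describes likeness and rests on 8 libraries that share their scaling, with PMC-306 the highest for each of the 7 genes. Cyp51, Acat2, Msmo1 and Srebf1 are in the lists above, and the other 6 are in none of them. Hacl1 and Supt7l followed the order with small steps, at 14.7 to 23.3 CPM and 17.3 to 22.7 CPM.

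Transcripts of proliferation markers were also higher in both lines, with another order of the lines than the 7 genes. Of 10 proliferation markers, 10 were called higher in the lines, with a median log2 difference of 3.54. Their summed level was 3018 CPM in PMC-303 and 2513 in PMC-306, beside 222 to 407 CPM in primary cultures, with 392 CPM in female 1 and 407 CPM in female 3. PMC-306 exceeded PMC-303 for 0 of 10 of these markers and for 7 of 7 cholesterol synthesis genes, against 44.2% of all genes tested. Pearson r with the mean profile of the 7 genes over all cultures was positive for these markers, from 0.690 (Pcna) to 0.796 (Ccnb1). The part of growth in the levels of the 7 genes was not tested. Folds of both lines use the same 6 primary cultures.

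**Figure D4:**
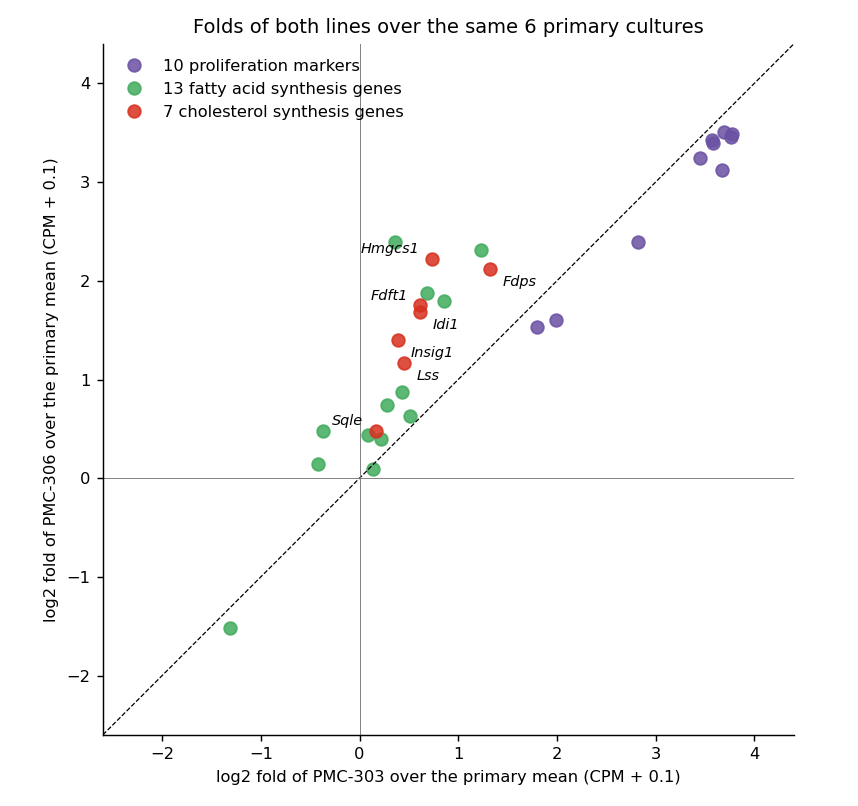
Log2 fold of PMC-306 (vertical) against PMC-303 (horizontal) over the same 6 primary cultures, where each point is 1 gene and the dashed line marks equal folds. All 7 cholesterol synthesis genes lie above the line and all 10 proliferation markers below it.

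All cultures carried mast cell transcripts, such as Cpa3 at 21763 to 38179 CPM. Of 10 mast cell markers 0 were called higher and 3 lower in the lines, among them the tryptase gene Tpsb2 with 177 CPM in PMC-303 and 20.9 in PMC-306, beside 2857 to 10441 CPM. Markers of other cells were near 0, as the lists for lymphocytes, granulocytes and mesothelial or fibroblast cells each summed to 3.47 CPM or less. Of the macrophage list 3 genes were tested and 0 called. Adgre1 had 426 CPM in PMC-306, 2.10 in PMC-303 and 3.37 to 46.4 CPM in primary cultures. Lyz2 was below the primary range of 1.18 to 18.0 CPM in PMC-306 (1.13) and in PMC-303 (0.247), and Cd68 was within its own primary range in both lines, while 5 of the 8 macrophage markers, Csf1r among them, were below 1 CPM in every library. The part of these other transcripts in the levels of the 7 genes was not tested. Libraries held 15918758 to 24180226 counts, so that a count of 0 allows up to 3 counts, or 0.123 to 0.187 CPM, for counting error only.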

How the data were processed

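Total RNA was made into stranded libraries by the authors, who trimmed reads with Trim Galore 0.6.7, aligned them to GRCm39 with STAR 2.7.9a and estimated counts with Salmon 1.5.2 (versions from the submitters' processing notes and the paper). The deposited tables hold estimated counts per gene and per transcript, without normalization, and TPM per gene. A spreadsheet program had rewritten 3.37% of gene count cells, 3.22% of transcript count cells and 21.8% of TPM cells as dates or with extra points. They were set back to numbers, the point of TPM cells being placed by the ratio to the counts. Genes and their transcripts then differed by at most 1.53 counts, and TPM columns summed to 999930 to 999997.

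Because cells were deposited as text, the restored values were tested with limma 3.58.1 (R 4.3.3) on log2(CPM + 0.1), with TMM scaling and a trend of variance on level, and p was adjusted over all genes tested (Benjamini-Hochberg, threshold 0.05). The filter asked for the CPM of 10 counts in enough libraries and 15 counts in total. The 7 genes and all lists were chosen with earlier results of these data known. Named list genes were the pathway controllers, up to 4 called genes of largest difference and up to 2 uncalled genes of largest mean per list, of which some were not printed. The values of 7 listed genes are not reported here, and counts over lists leave these genes out. Lines and primary cultures (2 against 6) and sexes (3 against 3) were compared. The p-values set a difference against the spread between these cultures. The 2 different lines stand as replicates of a group there, so that p does not cover variation within a line. Folds of single lines (CPM + 0.1) have no replicate check. Other scalings, offsets, filters, units and left-out libraries were tried. Coordinates are from GENCODE M39 on GRCm39, and 0 value columns lacked a sample. The RefSeq promoters are of GRCm38.p6. Genes on the opposite strand overlap 6 of the 7, and Fdps holds Gm22935 on its own strand, which had at most 1 count in a library. Python 3.11.15, pandas 2.3.3 and numpy 2.4.6 were used.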

Additional observations from a re-analysis of the deposited data

Results flagged for a closer look

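Fdft1 in the culture female 1, at 46.7 CPM, lay apart from the other 5 primary cultures, which had 18.0 to 21.2 CPM. The gap to the next culture was 0.889 of the range over the 6 cultures, above the limit of 0.625 for a group of this size (Dixon's test). Of 7 genes tested 1 met the limit. The 7 genes follow nearly one profile over the primary cultures, so that these are not separate tests and no chance rate is given. The gap shares of Insig1 (0.582) and Hmgcs1 (0.567) were under the limit, with female 1 again the highest.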

How the results depend on the processing

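Of the 7 genes, 5 were called higher in the lines, and 5 with median of ratios scaling, total counts, offsets of 0.5 or 1 CPM, a mean of at least 10 CPM, limma-voom and TPM. Without the filter it was 4 (Fdft1 lost, adjusted p = 0.0519, limma). Against female cultures only it was 0 and against male cultures only 6. Leaving out 1 library at a time gave 0 to 7. Without female 1 and PMC-306 together, chosen after seeing the data, it was 3 (Hmgcs1, Fdps and Fdft1). All genes called numbered 4920, and 2160 against female and 3033 against male cultures only. Total counts and TPM moved the split of higher and lower calls from 2665 and 2255 to 3406 and 1665 and to 2373 and 981, with the median of all genes at 0.10 and 0.13, and the 7 genes stayed positive. For female against male cultures, the difference of Fdft1 ranged from -0.0069 without female 1 to 0.677 without female 2. Whether replicate numbers pair female and male cultures was not tested. The correlations of deviations for replicates 1 to 3 were 0.405, -0.216 and 0.284. With the replicate block 0 of the 7 genes and 5 genes in all were called, against 6 without it. The block gave 95% intervals above 0 for Lss (0.04 to 0.62) and Insig1 (0.14 to 0.93). Those of Idi1 (0.02 to 1.02) and Fdps (0.02 to 1.15) also lay above 0. Intervals of Hmgcs1, Sqle and Fdft1 included 0 with the block, as did those of all 7 genes without it. Each line being 1 library, and medium changing with line, limits every comparison of lines and primary cultures. Depth does not, as the lowest of the 7 genes was at 18.0 CPM.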
